A study of Mus musculus with 12 samples.

Results

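Threonylcarbamoyladenosine (t6A) is a modified base that lies next to the anticodon of tRNAs reading codons that begin with A (ANN codons). YRDC makes the activated intermediate from threonine, bicarbonate and ATP. The KEOPS complex then transfers the threonylcarbamoyl group to cytoplasmic tRNAs, with OSGEP as its catalytic subunit. In mitochondria the transfer is made by OSGEPL1. CDKAL1 adds a methylthio group to t6A on the tRNA that reads lysine codons.

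The 9 genes of this pathway in the mouse were examined, out of 55487 genes in each of the deposited tables. They are 6 genes for KEOPS subunits (Osgep, Lage3, Trp53rka, Trp53rkb, Tprkb and Gon7) and 3 genes outside the complex (Yrdc, Osgepl1 and Cdkal1) and were chosen by name, with earlier results of these data known. All 9 were found by their Ensembl ID and all 9 passed the filter on low counts in every comparison. They lie on 8 chromosomes, with the near-identical pair Trp53rka and Trp53rkb both on chromosome 2.

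The cells were B16F10, a mouse melanoma line, carrying either a control short hairpin RNA (labelled shRNA Ctrl with genotype WT, here shCtr) or one hairpin against Osgep (labelled shRNA OSGEP#2 with genotype KD OSGEP, here shOSGEP). The knockdown therefore rests on 1 hairpin. Each genotype had 3 replicates, which the methods describe as independent transductions, and each replicate gave 1 library of ribosome-protected fragments (RPF) and 1 of total RNA, 12 libraries in 4 groups. Cells were given cycloheximide before lysis, and active ribosomes were captured with a puromycin analogue. Genes of the melanocyte lineage (7 markers) summed to 2655 to 16837 counts per M of the scaled library size (CPM, with M for mega) across the total RNA libraries, against 3.06 to 16.4 CPM for 8 markers of immune cells, fibroblasts, endothelium and keratinocytes. The median log2 difference of the 7 lineage markers between shOSGEP and shCtr was -2.16, -0.36 and 0.06 in replicates 1, 2 and 3. That of 10 interferon response genes was 3.37, 0.34 and 0.40 in the same order. For 8 stress response genes it was 0.95, 0.41 and 0.58. By the lineage and interferon genes, and less so by the stress genes, the shOSGEP cells of replicate 1 thus stood apart from the other 2 knockdown replicates.

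The site of the hairpin was located first, since it sets where the Osgep transcript is targeted. The study lists 41 bases for OSGEP#2, without saying which of them the hairpin pairs with. They occur once in the coding sequence of Osgep (ENSMUSG00000006289), at coding bases 486 to 526 of 1005, across the junction of exon 4 and exon 5 of 11. In GRCm38 the exon 4 part is chr14:50917836-50917857 (22 bases) and the exon 5 part is chr14:50917485-50917503 (19 bases), both on the minus strand. The listed site is shown with exon 4 in lower case and exon 5 in capitals.

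OSGEP#2: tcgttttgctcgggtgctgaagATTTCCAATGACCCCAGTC

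The site was present in 7 of the 8 annotated Osgep transcripts and was missing from Osgep-208, which is annotated as a retained intron. Osgepl1, the mitochondrial relative of Osgep, shared at most 8 consecutive bases with it. The longest run shared with any of the other 8 pathway genes was 10 bases, in Trp53rka and Trp53rkb. The only other annotated transcript that held the whole site was a processed pseudogene copy of Osgep, AC115117.1, which had 0 to 3 counts in every library. Shorter matches were not searched outside the pathway genes, so other possible targets of the hairpin were not assessed.

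**Figure D1:**
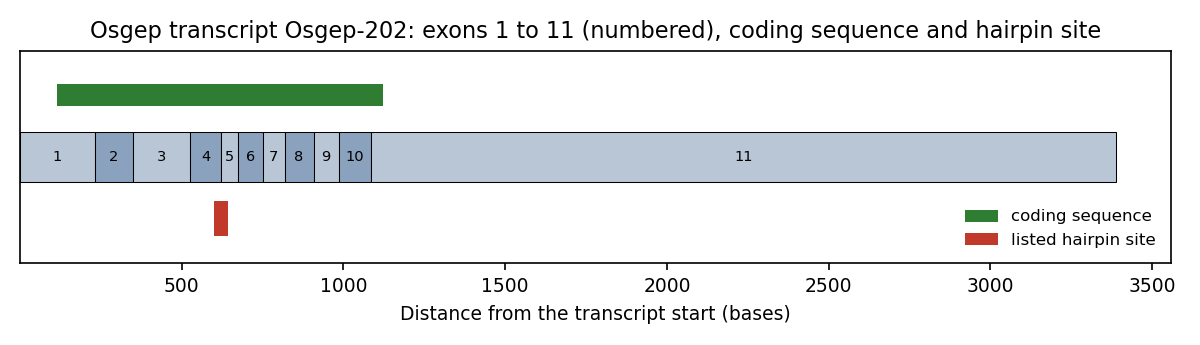
Exons of the Osgep transcript Osgep-202 along its length in bases from the transcript start, with the coding sequence above and the listed hairpin site below. The site lies at transcript bases 601 to 641, inside the coding sequence, and the last exon takes up most of the 3388 bases.

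Osgep, the targeted gene, had 815, 873 and 739 counts in the shCtr total RNA libraries of replicates 1, 2 and 3, and 38, 536 and 401 in the shOSGEP libraries. In CPM these were 13.9, 15.7 and 15.3 in shCtr against 0.589, 6.92 and 6.77 in shOSGEP. The groups did not overlap, and the shOSGEP library of replicate 1 lay far below the other 2. The 95% counting interval of the Osgep RNA level as a percentage of the paired shCtr library (Clopper-Pearson, from the split of the reads) was 2.98% to 5.88% for replicate 1, 39.5% to 49.1% for replicate 2 and 39.2% to 50.2% for replicate 3. Replicate 1 therefore differed from the other pairs by more than the counting error so estimated. Counting intervals here and below leave out variation between cell samples. PCR copies could not be told from separate molecules, so the intervals may be too narrow even for counting error.

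Osgep was among the genes with the lowest differences in total RNA in each pair. Of 14516 genes tested, 13 were lower than Osgep in replicate 1, 162 in replicate 2 and 106 in replicate 3. Its rank was thus near the bottom in all 3 pairs, although the size of its difference was not the same.

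The footprints on Osgep showed a more even pattern. RPF counts were 137, 120 and 235 in shCtr and 59, 123 and 91 in shOSGEP, equal to 7.72, 7.27 and 4.71 CPM against 4.87, 3.81 and 2.36 CPM. Each shOSGEP library was below its own shCtr library, but the groups overlapped, since shCtr replicate 3 was below shOSGEP replicate 1. The counting intervals of the RPF level relative to shCtr were 45.7% to 86.2%, 40.4% to 67.9% and 38.9% to 64.1% in replicates 1, 2 and 3, and all 3 overlapped each other. In the RPF comparison 3055, 520 and 265 of 13529 genes had a lower difference than Osgep in the respective pairs.

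RPF and total RNA gave different values in replicate 1. The ratio of RPF CPM to total RNA CPM of Osgep was 0.557, 0.463 and 0.308 in shCtr and 8.27, 0.550 and 0.348 in shOSGEP. The other cell samples lay between 0.308 and 0.557, and the value of 8.27 rested on 59 RPF counts over 38 total RNA counts. On the log2 scale the paired differences of this ratio were 3.83, 0.26 and 0.19. Only 30 of 12560 genes had a higher difference than Osgep in replicate 1, against 2203 in replicate 2 and 3771 in replicate 3. Ribosomal RNA took 67.7% of the counts of the shOSGEP replicate 1 RPF library and 27.7% to 44.8% of those of the other RPF libraries, and its part in the ratio was not tested.

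In the fit over all genes, Osgep changed by -1.65 on the log2 scale (SE 0.77) at the RNA level and by -0.84 (SE 0.39) at the footprint level, neither of which passed the threshold (edgeR quasi-likelihood test, Benjamini-Hochberg adjusted p 0.975 and 0.9998, with an unadjusted p of 0.069 in each). The change in translational efficiency, defined as RPF over total RNA, was 0.81 (SE 0.91, edgeR adjusted p 0.99999) and became 0.04 when the shOSGEP cell sample of replicate 1 was left out. Without that sample, the RNA change was -1.13 with an SE of 0.17 (edgeR unadjusted p 0.000207, adjusted p 0.9997). A two-sided exact permutation test over samples gave p = 0.1 in total RNA, the smallest that 3 against 3 allows, p = 0.2 in RPF and p = 0.5 for the ratio.

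**Figure D2:**
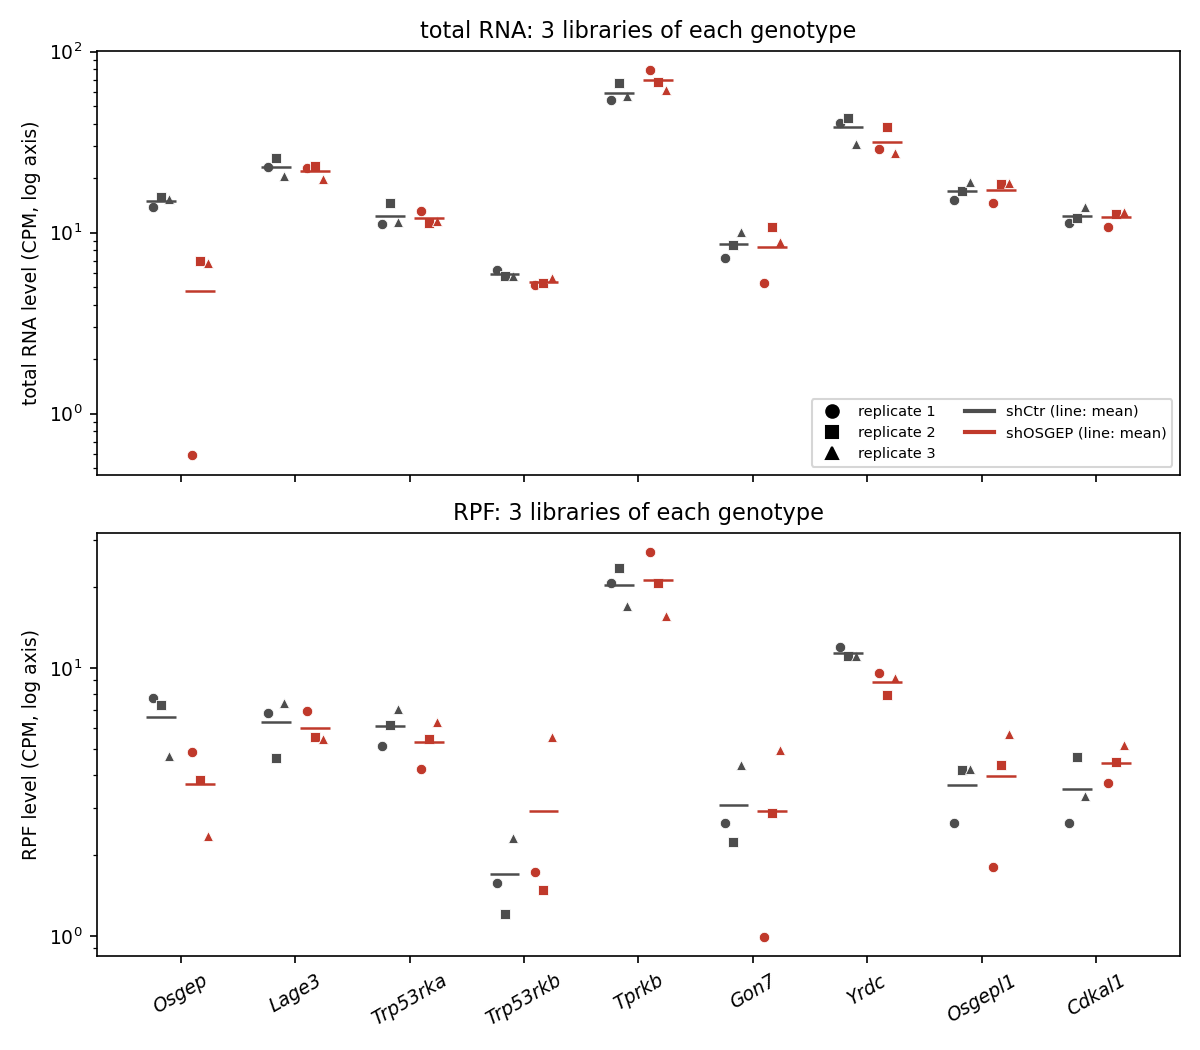
Levels of the 9 genes in every total RNA library (top) and RPF library (bottom), in CPM on a log axis, with shCtr in grey, shOSGEP in red, 1 symbol per replicate and a line at each mean. Osgep in the shOSGEP replicate 1 total RNA library, at 0.589 CPM, is the lowest point of the top panel, while most other genes have interleaved grey and red points.

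The question was then whether the partners of OSGEP moved with it. None of the 9 genes passed an adjusted p of 0.05 in total RNA, in RPF or for translational efficiency, where the share of all genes called was 0% in each. At an unadjusted p under 0.05 in the same fits, which hold no term for the replicate pairs, again 0 of 9 passed in each comparison, against 1.78% of all genes in total RNA, 1.03% in RPF and 0.135% for translational efficiency. With the replicate number as a block, Osgep alone of the 9 passed that unadjusted threshold, at -2.13 in total RNA (SE 0.79, edgeR p 0.0447, adjusted 0.721) and -0.87 in RPF (SE 0.25, edgeR p 0.0141, adjusted 0.817). In these blocked fits 449 of all 14516 genes passed it in total RNA and 549 of 13529 in RPF, more than without the block. DESeq2 without the block gave p 0.0155 for Osgep in total RNA (adjusted 0.997), where 584 of 24826 genes had an unadjusted p under 0.05. The median log2 change of the 8 genes other than Osgep was -0.05 in total RNA, -0.003 in RPF and -0.01 for translational efficiency, beside medians over all genes of 0.02, 0.05 and -0.002.

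Of the 9 genes, 2 had total RNA values in shOSGEP that all lay below those in shCtr, Osgep and Trp53rkb, where 3.09% of all genes did so. Osgep is the target of the hairpin itself, and the groups overlapped for Trp53rkb once the counts of Trp53rka were added (values below). None of the 9 genes lay entirely above, where 4% of all genes did. By pairs, 4 genes were lower in 3 of 3 replicates in total RNA (Osgep, Lage3, Trp53rkb and Yrdc; 16.2% of all genes) and 1 was higher (Tprkb; 17.7%). In RPF, 1 gene lay entirely below shCtr (Yrdc; 2.64% of all genes) and 0 entirely above (2.43%), while 3 were lower in every pair (Osgep, Trp53rka and Yrdc; 15.2%) and 1 was higher (Trp53rkb; 15.6%). For translational efficiency no gene was separated in either direction (2.31% of all genes lower, 2.03% higher), 1 was lower in every pair (Tprkb; 11.2%) and 2 were higher (Osgep and Trp53rkb; 11.6%).

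Among the KEOPS subunits, Lage3 encodes a small subunit that binds OSGEP directly. Its total RNA was 23.1, 25.7 and 20.5 CPM in shCtr and 22.8, 23.4 and 19.7 CPM in shOSGEP. The libraries of a pair differed by at most 0.14 on the log2 scale, and the fitted change of -0.07 had an interval of 2 SE from -0.40 to 0.26. In RPF the interval was wider, from -0.70 to 0.54, on 76 to 371 counts per library.

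Tprkb encodes the subunit that binds the kinase subunit and contacts tRNA. It had the highest count of the 9 genes, at 53.7, 67.1 and 56.7 CPM in shCtr total RNA and 79.0, 68.1 and 61.2 CPM in shOSGEP. Its total RNA was higher in 3 of 3 pairs, mainly through replicate 1 (log2 difference 0.56, against 0.02 and 0.11), and the groups overlapped. In RPF it was 20.7, 23.6 and 17.03 CPM in shCtr and 27.2, 20.9 and 15.7 CPM in shOSGEP. The paired log2 differences of RPF over total RNA were -0.17, -0.20 and -0.23, with an SD of 0.03 that was the smallest of the 9 genes. The fitted change in translational efficiency was -0.19 (SE 0.32), with an interval of 2 SE from -0.84 to 0.46. That fit holds no term for the cell sample, and with such a term the change was -0.21 (SE 0.21, edgeR unadjusted p 0.351).

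The kinase subunit, which hydrolyses ATP in the complex, is encoded by 2 genes in the mouse. Trp53rka and Trp53rkb have coding sequences of 732 bases each that are identical at 721 bases (98.5%), with a run of 406 identical bases, which is longer than any footprint. Of the 30-base windows of either coding sequence, 71.1% also occurred in the other gene. The first 60 coding bases of both are shown because they hold 4 of the differences, which are in capitals.

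Trp53rka: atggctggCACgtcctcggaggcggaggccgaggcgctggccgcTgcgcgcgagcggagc

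Trp53rkb: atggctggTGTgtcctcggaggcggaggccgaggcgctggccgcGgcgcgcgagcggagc

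RPF reads of these genes can therefore not be assigned with certainty, and although the methods mention uniquely mapped footprints, how reads with several matches entered these counts is not given. Trp53rka had 51 to 351 RPF counts per library and Trp53rkb 20 to 214. Trp53rkb measured 1.58, 1.21 and 2.32 CPM in shCtr RPF and 1.73, 1.49 and 5.55 CPM in shOSGEP RPF. The last library was the only one that stood out, and it was not matched in total RNA, where Trp53rkb was 6.19, 5.75 and 5.79 CPM in shCtr and 5.11, 5.25 and 5.63 CPM in shOSGEP.

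Trp53rkb had a fitted RPF change of 0.78 (SE 0.63, edgeR adjusted p 0.9998), and its RNA changed by -0.15 (SE 0.21, edgeR adjusted p 0.975). Without shOSGEP replicate 3 the RPF value was -0.10. When the counts of both genes were added, the change was -0.07 in total RNA (SE 0.16) and 0.08 in RPF (SE 0.35). The summed total RNA level was 17.3, 20.3 and 17.2 CPM in shCtr and 18.3, 16.5 and 17.3 CPM in shOSGEP, and the groups overlapped. The summed RPF level was 6.70, 7.34 and 9.35 CPM in shCtr and 5.95, 6.93 and 11.8 CPM in shOSGEP, so that the sum in shOSGEP replicate 3 remained the highest of the 6 libraries.

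Gon7 encodes the smallest subunit, which stabilises the complex. Its gene overlaps the gene models Gm28051 and Gm20604 on the same strand, and 66.8% of its 30-base coding windows also occurred in them. Gon7 RPF counts were 47, 37 and 217 in shCtr and 12, 93 and 191 in shOSGEP, while those of Gm28051 were 49, 30 and 81 in shCtr and 66, 41 and 0 in shOSGEP. Gm28051 was thus above Gon7 in the library where Gon7 was lowest and had no counts in another. The log2 difference of Gon7 alone in RPF was -1.36, 0.35 and 0.18 in replicates 1, 2 and 3, with an SD of 0.94.

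With the counts of Gm28051 added, the RPF level was 5.41, 4.06 and 5.97 CPM in shCtr and 6.44, 4.15 and 4.95 CPM in shOSGEP. The pair differences became 0.25, 0.03 and -0.27, with an SD of 0.26, and the SE of the fitted change went from 0.61 to 0.33 around changes of -0.06 and 0.003. This sum was chosen after the values were seen. In total RNA Gm28051 had at most 7 counts in any library, and Gon7 measured 7.28, 8.52 and 10.04 CPM in shCtr and 5.25, 10.7 and 8.89 CPM in shOSGEP, with a fitted change of -0.06 (SE 0.31). Adding the counts of Gm20604 instead, which had 648 to 1677 counts in total RNA, gave 0.30 (SE 0.18, edgeR adjusted p 0.974). In RPF that sum changed by -0.23 (SE 0.37), with pair differences of -0.51, -0.44 and 0.15, and in translational efficiency by -0.54 (SE 0.38), so the values for Gon7 depended on which overlapping model was added.

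Yrdc, the enzyme that supplies the intermediate to KEOPS, was the only pathway gene other than Osgep that was lower in 3 of 3 pairs in both assays. The share of all genes that were so in both assays was not computed. The total RNA of Yrdc was 40.4, 42.9 and 30.9 CPM in shCtr and 28.8, 38.4 and 27.5 CPM in shOSGEP, and the groups overlapped. Its RPF level was 12.001, 11.09 and 11.06 CPM in shCtr and 9.58, 7.93 and 9.17 CPM in shOSGEP, without overlap. The fitted log2 change was -0.27 in total RNA (SE 0.20) and -0.36 in RPF (SE 0.23, edgeR unadjusted p 0.167, adjusted p 0.9998). With the replicate number as a block, the total RNA change was -0.27 (SE 0.13, edgeR unadjusted p 0.0943, adjusted p 0.721). The RPF change was then -0.36 (SE 0.19, edgeR unadjusted p 0.113, adjusted p 0.817). When 1 library was left out at a time, the RNA change lay between -0.44 and -0.17 and the RPF change between -0.42 and -0.29. Yrdc shares 488 exonic bases with 1110065P20Rik on the opposite strand, whose fitted change was -0.03 in total RNA and -0.19 in RPF.

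Osgepl1, the mitochondrial enzyme, had total RNA values in shOSGEP that overlapped those in shCtr. They were 15.1, 16.9 and 18.9 CPM in shCtr and 14.5, 18.4 and 18.8 CPM in shOSGEP, with a fitted change of 0.02 and an interval of 2 SE from -0.35 to 0.39. The RPF level was 2.65, 4.18 and 4.19 CPM in shCtr and 1.82, 4.33 and 5.68 CPM in shOSGEP. It too shares coding sequence with an overlapping gene model, Gm28778, which held 26.9% of its windows. Gm28778 had 57, 54 and 30 RPF counts in shCtr and 121, 58 and 0 in shOSGEP, next to 47, 69 and 209 and then 22, 140 and 219 counts on Osgepl1. Adding them moved the RPF change from 0.11 (SE 0.48) to 0.38 (SE 0.38) and widened the SD of the pair differences from 0.48 to 0.64, unlike for Gon7.

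Cdkal1, the methylthiotransferase that acts on t6A, measured 11.4, 12.03 and 13.8 CPM in shCtr total RNA and 10.7, 12.7 and 12.9 CPM in shOSGEP. The change of -0.03 had an interval of 2 SE from -0.41 to 0.34. In RPF it was 2.65, 4.67 and 3.34 CPM in shCtr and 3.72, 4.46 and 5.16 CPM in shOSGEP, a fitted change of 0.33 (SE 0.36, edgeR adjusted p 0.9998) that was positive in 2 of 3 pairs. Tprkb, Yrdc and Cdkal1 had no 30-base coding window in common with another annotated gene.

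**Figure D3:**
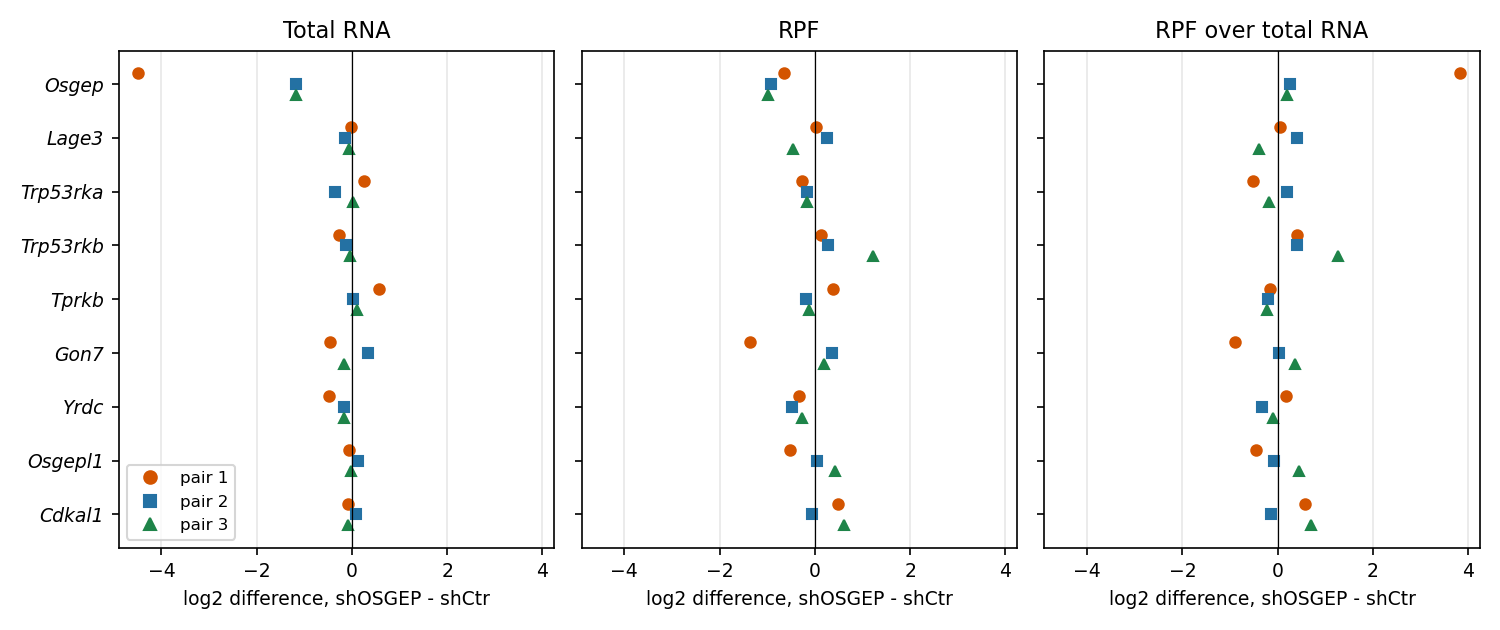
Difference in log2 CPM between the shOSGEP and the shCtr library of the same replicate for each gene, in total RNA, in RPF and for RPF over total RNA, with 1 symbol per pair. Osgep of pair 1 lies at -4.48 in total RNA and at 3.83 for the ratio, Gon7 of pair 1 at -1.36 and Trp53rkb of pair 3 at 1.23 in RPF, and most other points lie close to 0.

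The levels of the subunits relative to each other were compared per length, as CPM per kb of merged exons in total RNA and of merged coding sequence in RPF, in the shCtr libraries (mean ± SD, n = 3). In total RNA the order was Yrdc (19.2 ± 3.2), Lage3 (11.4 ± 1.3), Tprkb (11.04 ± 1.3), Gon7 (6.08 ± 0.98), Trp53rka (5.84 ± 0.90), Osgep (3.03 ± 0.20), Osgepl1 (2.76 ± 0.31), Trp53rkb (1.03 ± 0.043) and Cdkal1 (0.968 ± 0.098). The ranges of Lage3 and Tprkb, Gon7 and Trp53rka, Osgep and Osgepl1, and Trp53rkb and Cdkal1 overlapped, and the other neighbours in this order did not. Osgep lay at the 31st percentile of 12139 protein-coding genes tested and Yrdc at the 79th.

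In RPF the order was Tprkb (36.1 ± 5.9), Lage3 (14.1 ± 3.3), Yrdc (13.6 ± 0.64), Gon7 (8.87 ± 3.2), Trp53rka (8.32 ± 1.3), Osgep (6.50 ± 1.6), Osgepl1 (2.91 ± 0.70), Trp53rkb (1.88 ± 0.62) and Cdkal1 (1.75 ± 0.51). The range of Tprkb was separate from that of Lage3, that of Yrdc from that of Gon7 and that of Osgep from that of Osgepl1, and the remaining neighbours overlapped. By its mean, the catalytic subunit was thus the fifth of the KEOPS genes in both assays, above only Trp53rkb. In RPF its range overlapped those of Trp53rka and Gon7, so its place below them there is not settled. The counts of Trp53rka, Trp53rkb and Gon7 are also uncertain, since they share coding sequence with other genes as described above. Lage3 and Osgep shared 38.3% and 29.3% of their coding windows with pseudogene copies, which had at most 21 RPF counts in any library. Tprkb reached the 86th percentile of 11604 genes and Osgep the 43rd.

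The order in total RNA depended on the length used. With the longest transcript as the length, Tprkb came first at 26.6 CPM per kb and Trp53rkb last at 1.33, and Cdkal1 came to 2.83 CPM per kb, since its merged exons span 12799 bases and its longest transcript 4383. The order in RPF was the same with the longest coding sequence. In the shOSGEP total RNA libraries Osgep stood below Osgepl1 in the order, to the place next to Cdkal1.

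**Figure D4:**
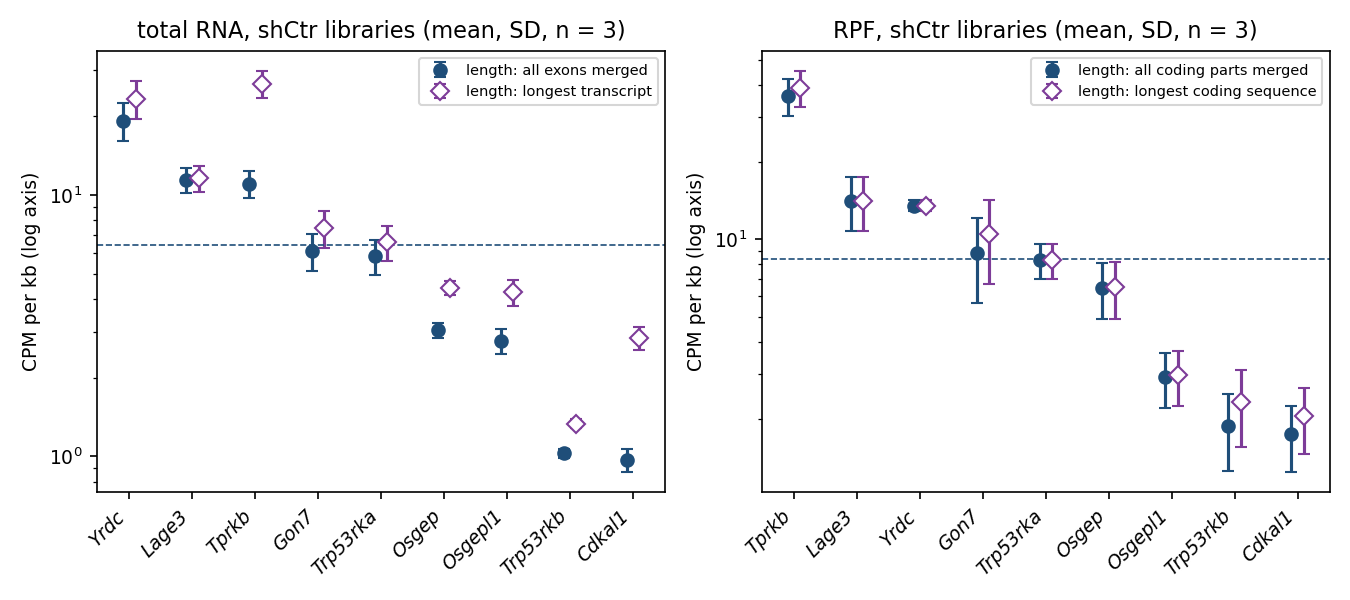
Level per length of the 9 genes in the shCtr libraries, in CPM per kb on a log axis (mean and SD, n = 3), in total RNA (left) and RPF (right), with both choices of length and a dashed line at the median of all protein-coding genes tested for the merged length. Yrdc, Lage3 and Tprkb lie above the line in both panels, and Osgep, Osgepl1, Trp53rkb and Cdkal1 below it.

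Divided by each other, the RPF and total RNA levels per length gave a ratio that differed between the 9 genes in shCtr. With merged lengths it was highest for Tprkb (3.27 ± 0.41) and lowest for Yrdc (0.718 ± 0.12, mean ± SD, n = 3), against a median of 1.15 over 11311 genes. These genes lay at the 92nd and the 21st percentile of this ratio. With the longest lengths the ratios were 1.47 ± 0.18 and 0.592 ± 0.097, at the 78th and the 24th percentile. Yrdc was still the lowest, but Trp53rkb (1.75 ± 0.60) and Osgep (1.49 ± 0.42) then lay above Tprkb.

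The coding sequences were then read for the codons that t6A tRNAs decode. The share of ANN codons was 34.3% in Tprkb, 29.95% in Osgepl1, 29.2% in Cdkal1, 26.3% in Osgep, 23.6% in Lage3, 19.3% in Trp53rka, 18.9% in Trp53rkb, 17.5% in Yrdc and 12.2% in Gon7, beside a median of 27.7% over 21423 coding genes. The genes of the pathway thus covered nearly the whole range, from the 93rd percentile (Tprkb) to below the 1st (Gon7, of 98 codons). The AAA lysine codon took 4.57% of the codons of Tprkb and 0.597% of those of Osgep. GC content was lowest in Tprkb (39.8%) and highest in Yrdc (65.4%).

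Other enzymes that modify the same tRNA position were taken as a comparison of like function. The 10 genes were Trmo, which methylates t6A, Cdk5rap1 and Trit1 of the isopentenyladenosine pathway, Trmt5, the wybutosine enzymes Tyw1, Trmt12, Tyw3, Lcmt2 and Tyw5, and Adat1. In total RNA 6 of 10 had a positive and 4 a negative fitted change and 0 were called, with a median of 0.05. In RPF 9 were tested, 8 of them positive and 0 called, with a median of 0.42, and for translational efficiency 8 of 9 were positive and 0 were called. By replicate pair, the median RPF difference of the 10 genes was -0.11, 0.10 and 0.46 in replicates 1, 2 and 3. The fits hold no term for the pairs, and the share of all genes with a positive change was not computed. The largest values in total RNA were 0.71 (SE 1.09) for Lcmt2, which measured only 0.618 ± 0.70 CPM in shCtr (SD, n = 3), and 0.28 (SE 0.21) for Trmt12, which was higher in 3 of 3 pairs. The edgeR adjusted p was 0.975 for both.

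Genes next to the pathway genes were compared as a check on the loci. Apex1, which encodes a DNA repair endonuclease, starts 75 bases from Osgep on the opposite strand. Its log2 difference was -1.45, -0.16 and -0.17 in total RNA in replicates 1, 2 and 3, and -0.70, -0.49 and -0.37 in RPF, so it was lower in every pair and, as for Osgep, lowest in total RNA in replicate 1. The total RNA differences of all genes tested also spread most in replicate 1, with an SD of 1.00 against 0.48 and 0.50. For Apex1, neither the RNA change of -0.43 (SE 0.42, edgeR adjusted p 0.975) nor the RPF change of -0.53 (SE 0.42, edgeR adjusted p 0.9998) passed the test. Pip4p1, the next gene on the strand of Osgep, had a fitted change of -0.01 in total RNA. Pnp, which encodes a purine nucleoside phosphorylase, had pair differences of 1.14, -0.14 and -0.07 at the RNA level (fitted change 0.36, SE 0.30), and its footprints differed by 1.35, -0.04 and -0.61 (fitted change 0.50, SE 0.54). Of 12 protein-coding neighbours 8 were tested in total RNA and 10 in RPF, and 0 were called in either.

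The genes most like Osgep over the 12 libraries, by Pearson's r of log2 CPM after subtracting the mean of each assay, were Mis18a (r = 0.95), Atp6v1d (r = 0.95) and A830019P07Rik (r = 0.95), out of 12559. The points share libraries and the contrast, and replicate 1 weighs heavily in them, so these values are a description. Of the pathway genes Yrdc was nearest, at r = 0.55 and rank 1534, and Tprkb farthest, at r = -0.27.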

How the data were processed

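The authors deposited whole-number read counts per Ensembl gene, not normalised, in 1 table per assay. Per the labels and methods, adapters were trimmed with Trim Galore or cutadapt and reads were aligned with STAR. For total RNA of these cells the methods name Salmon for quantification, and for RPF they keep perfect matches to the coding transcriptome and mention uniquely mapped reads. Whether these steps made the deposited tables, the use of strand and the handling of reads with several matches are not given in the sources used here, which name both GRCm38 and GRCm39. Lengths, coordinates and coding sequences came from GENCODE M21 (GRCm38), in which 55227 of 55487 IDs were found. No column was left without a sample (0).

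Tests used the edgeR 4.0.16 quasi-likelihood method in R 4.3.3 (filterByExpr, TMM, Benjamini-Hochberg adjustment over all genes, threshold 0.05). Total RNA and RPF were fitted separately. Translational efficiency was the interaction of assay and genotype over 12 libraries. CPM used TMM library sizes, and log2 CPM a prior count of 2. Pair differences subtract libraries of the same replicate number. Same-numbered libraries deviated together (r over genes 0.29 to 0.54 for the total RNA pairs and 0.51 to 0.66 for the RPF pairs), so the numbers, which come from the labels, were taken to pair the samples. Total counts were 46.7 to 81.1 M per total RNA library and 12.9 to 40.3 M per RPF library (M for mega), of which 4.42 to 17.02 M fell on protein-coding genes. DESeq2 1.42.0 was an alternative. Sequences were aligned with MAFFT 7.526. The tests were tried on simulated counts that held no pair effect and no outlying sample. The outcome therefore does not carry over to these data and is not used here.

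The genes, comparison lists and tests were chosen with earlier results of these data known. All 9 pathway genes are named. Further names follow fixed rules: the 2 enzymes of the same tRNA position with the largest change in total RNA, protein-coding genes overlapping or starting within 10000 bases, and the 3 genes most like Osgep.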

Additional observations from a re-analysis of the deposited data

How the results depend on the processing

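No pathway gene passed an adjusted p of 0.05 under any alternative (0 in total RNA, RPF and translational efficiency, smallest adjusted p 0.701), and the change of Osgep kept its sign in every fit. Among all genes, DESeq2 called 9 in total RNA, 4 in RPF and 5 for translational efficiency, the replicate block called 1 in total RNA, and the absence of a filter called 229 in RPF. The replicate block changed no other call. Leaving out any 1 library, cell sample or replicate 1 of both genotypes (the last chosen after seeing the data) called 0 genes throughout.

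Of 384 changes of single pathway genes under alternatives, 45 turned sign, all of them from changes that did not pass the test. With 1 library or cell sample left out at a time, in total RNA Lage3 ran from -0.166 to 0.0135, Trp53rka from -0.116 to 0.097, Gon7 from -0.29 to 0.179, Osgepl1 from -0.0614 to 0.124 and Cdkal1 from -0.0995 to 0.0405. In RPF, Lage3 ran from -0.271 to 0.0578, Trp53rkb from -0.098 to 1.09, Tprkb from -0.173 to 0.226, Gon7 from -0.657 to 0.325 and Osgepl1 from -0.247 to 0.432. For translational efficiency, Lage3 ran from -0.278 to 0.199, Trp53rka from -0.32 to 0.0476, Gon7 from -0.528 to 0.242, Yrdc from -0.204 to 0.135 and Osgepl1 from -0.186 to 0.308.

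Without replicate 1 of either genotype, the values that turned were 0.0702 for Gon7 in total RNA, -0.163 for Tprkb and 0.226 for Gon7 in RPF, and 0.00777 for Trp53rka and 0.146 for Gon7 for translational efficiency. Other settings that turned a sign gave -0.0206 for Tprkb in RPF without a filter and, for translational efficiency, 0.00751 for Lage3 and 0.0316 for Gon7 with protein-coding genes only, and 0.00254 (RLE factors) and 0.0325 (at least 10 counts in every library) for Gon7. Added counts gave 0.0818 in RPF and 0.146 in translational efficiency for Trp53rka with Trp53rkb, and for Gon7 0.304 with Gm20604 in total RNA, 0.00334 with Gm28051 in RPF and 0.0511 with Gm28051 for translational efficiency. The cause was not tested.

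RPF values rested on as few as 12 to 217 counts per library for Gon7 and 20 to 214 for Trp53rkb. With protein-coding counts as the library size, the percentage of Osgep left moved within its counting interval in every pair (from 4.25% to 4.51% in total RNA of replicate 1), and the order of levels in RPF was the same.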
